A study of Mus musculus with 6 samples.

Results

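The unfolded protein response and the integrated stress response were examined through 35 genes in liver RNA of male mice of C57BL/6, an inbred strain in wide laboratory use. The genes were taken by symbol from the deposited count table, and each of the 35 matched 1 of its 56674 gene rows. They comprised 11 chaperones and co-chaperones of the endoplasmic reticulum (ER) lumen, 4 protein disulfide isomerases, 4 stress sensors counting XBP1, 8 genes of ER-associated degradation and 8 genes of the ATF4 and CHOP arm. The rule that takes them uses gene symbols and no measured value, but the genes were chosen with earlier results of these data known. The PP-MP group had 3 libraries from mice given chow with polypropylene microplastic, and the control group had 3 libraries from mice given normal chow. Strain, sex, age (71 weeks) and tissue were the same in both groups, and the labels name no genotype beyond the strain. One label field names PS-MP for all 6 samples, controls included, so the groups follow the sample titles and the diet field. The sources used here do not give dose, particle size or feeding time. Nor do the labels say that libraries of a diet came from separate animals, so a p-value here reflects only how these samples spread, which may be technical. The stated purpose was to find how long exposure to polypropylene particles bears on gene expression in the liver.

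The ER is where secreted and membrane proteins fold, and a hepatocyte exports most of the proteins of blood plasma. When unfolded protein builds up, the membrane sensors IRE1, ATF6 and PERK become active. IRE1 splices the Xbp1 mRNA and ATF6 is cleaved to a free transcription factor, and both lines raise chaperones and degradation factors. PERK phosphorylates the initiation factor eIF2, which lowers most translation but favours that of the transcription factor ATF4. Other kinases of eIF2 sense amino acid shortage, haem shortage and double-stranded RNA, and this shared step is called the integrated stress response. ATF4 and its target CHOP raise genes of amino acid supply, redox balance and cell death. Counts per gene do not show Xbp1 splicing, ATF6 cleavage, eIF2 phosphorylation or ATF4 protein, so only the transcript level of each gene is described.

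Libraries held 81073738 to 100252360 counts in the PP-MP group and 68357478 to 112566641 counts in the control group. All 10 hepatocyte marker genes were tested, and their summed level was 76787 to 91350 counts per 1000000 (CPM) in the PP-MP group and 71339 to 86405 CPM in the control group. A pair of libraries stood apart from the rest. PP-MP 1 had 31831 CPM in summed acute phase genes, against 5945 to 6979 CPM in PP-MP 2 and 3 and 5183 to 6917 CPM in the controls. Control 2 had 11.187% of its counts on the ribosomal RNA row Rn18s-rs5, against 0.655% to 0.75% in the PP-MP libraries and 1.149% to 2.916% in the other controls. CPM values are scaled by trimmed mean of M values (TMM), an estimate of relative library size that discounts extreme genes.

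None of the 35 genes passed the test in either direction (edgeR quasi-likelihood test, adjusted p under 0.05), where 0.0109% of all 18284 tested genes passed. DESeq2 called 0 of the 35, where it called 4.25% of all genes. An unadjusted edgeR p under 0.05 was reached by 1 of the 35, Atf5, and by 13.9% of all genes. The PP-MP libraries all lay above the control libraries for 3 members, which is 8.57% of them, against 12.2% of all genes. They all lay below for 4 members, which is 11.4%, against 9.79% of all genes. These shares do not set the 35 genes apart from the table. The 35 genes had 16 fitted values above 0 and 19 below, and their median log2 fold change was −0.06, against 0.03 for all tested genes.

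The intervals were narrower than for most genes. For 26 of 35 members, which is 74.3%, the 95% interval stayed short of a 2-fold change in either direction, against 46.3% of all genes. The median distance from the estimate to the end of its interval was 0.41 for the 35 genes and 0.73 for all genes, on the log2 scale. Of the 9 members with wider or shifted intervals, 3 were chaperones, 1 was a sensor, 1 was a degradation gene and 4 belonged to the ATF4 and CHOP arm. For those 9, the interval at this number of libraries included a change of more than 2-fold in at least one direction.

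**Figure D1:**
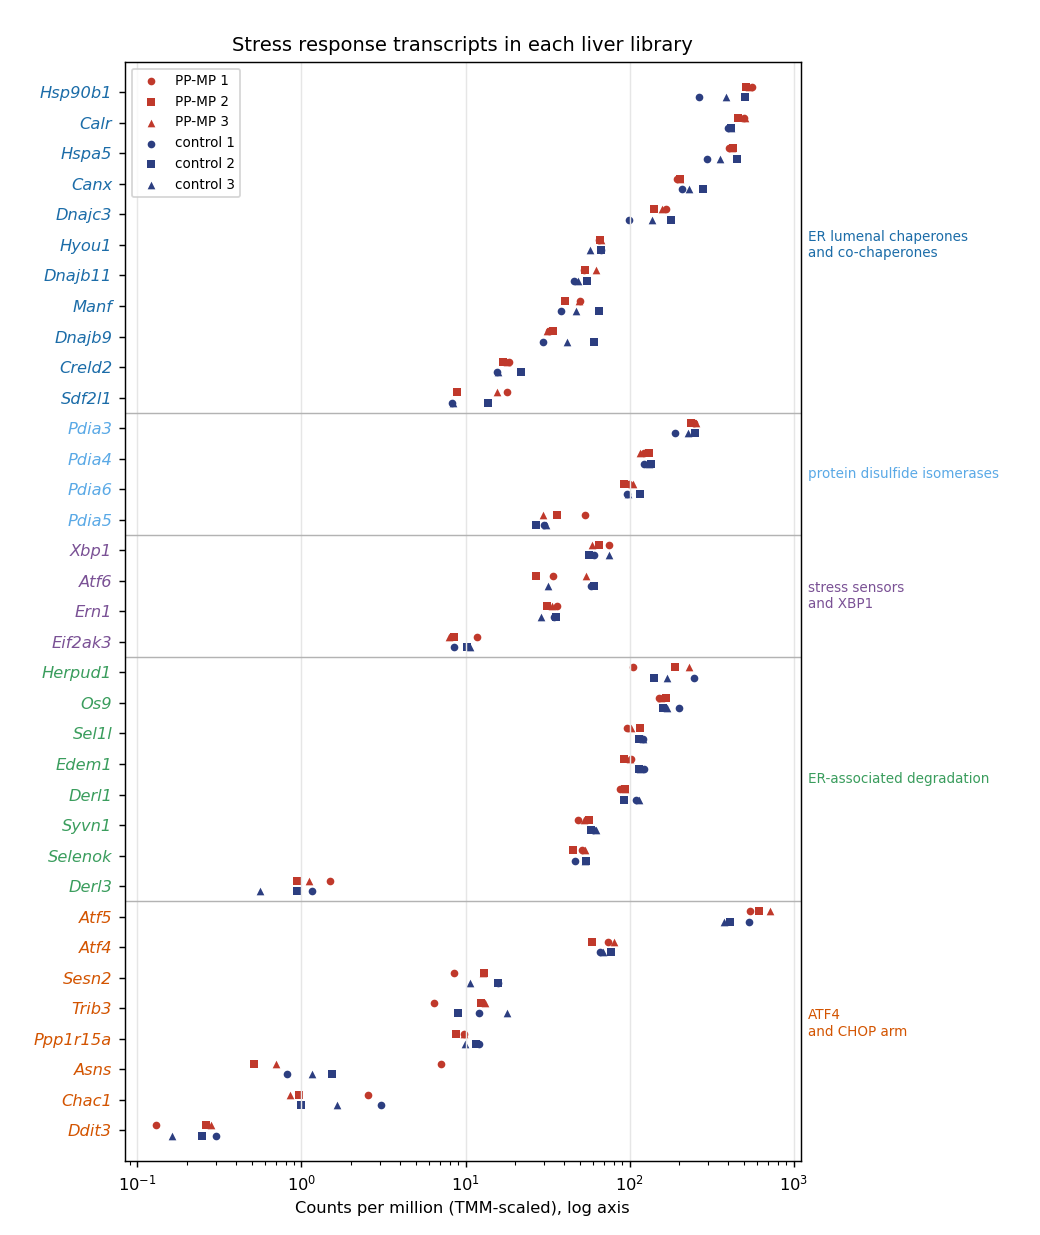
TMM-scaled CPM of each gene in each library on a log axis, with PP-MP libraries in red above the control libraries in blue and a marker shape for each replicate number. Chaperones and isomerases lay between 8.85 and 555 CPM in the PP-MP libraries and 8.24 and 502 CPM in the controls, and Ddit3 lay under 1 CPM in all 6 libraries.

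Chaperones and co-chaperones of the ER lumen had a median log2 fold change of 0.16, with 8 fitted values above 0 and 3 below, and single values from −0.43 to 0.47. None passed the edgeR test, no unadjusted p was under 0.05, and DESeq2 made no call. Groups did not overlap for 3 of the 11, with Hsp90b1 and Calr higher and Canx lower in the PP-MP group. That is 18.2% higher and 9.09% lower, against 12.2% and 9.79% of all genes. When plain library totals replaced the TMM factors, the groups of Canx overlapped.

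Hspa5, which encodes BiP, the chaperone that holds the sensors inactive, had 405, 429 and 423 CPM in PP-MP 1, 2 and 3, against 295, 451 and 357 CPM in control 1, 2 and 3. The PP-MP libraries lay close together, inside the wider range of the controls. Its log2 fold change was 0.19 with a standard error (SE) of 0.19 and a 95% interval from −0.26 to 0.64 (edgeR adjusted p = 0.67).

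Hsp90b1, which encodes GRP94, an HSP90 of the ER that folds integrins and Toll-like receptors, had 555, 513 and 534 CPM in PP-MP 1, 2 and 3, against 264, 502 and 386 CPM in control 1, 2 and 3. Each PP-MP library lay above each control, though control 2 came near to PP-MP 2. Its log2 fold change was 0.47 with an SE of 0.24 and an interval from −0.11 to 1.06 (edgeR adjusted p = 0.44). Without control 2 the log2 fold change was 0.73 (edgeR adjusted p = 0.17), and without control 1 it was 0.28. Antisense and same-strand gene models share exons with Hsp90b1. Of these, the antisense 1810014B01Rik had 2.80 to 4.12 CPM in the PP-MP group and 2.16 to 2.79 CPM in the control group. The same-strand Gm15344 had 0.644 to 1.45 CPM in the PP-MP group and 0.182 to 0.348 CPM in the control group. Its log2 fold change was 2.07 with an SE of 0.45 (edgeR adjusted p = 0.21).

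The lectin chaperones calreticulin and calnexin, which bind sugar chains on newly made glycoproteins, parted in direction. Calr had 497, 459 and 502 CPM in PP-MP 1, 2 and 3, against 397, 417 and 415 CPM in control 1, 2 and 3. Canx had 194, 204 and 204 CPM in PP-MP 1, 2 and 3, against 208, 278 and 229 CPM in control 1, 2 and 3. Each gene's groups stayed apart, the soluble calreticulin higher and the membrane-bound calnexin lower in the PP-MP group, by differences that did not pass the test. Calr had a log2 fold change of 0.25 ± 0.14 and Canx one of −0.25 ± 0.16 (estimate ± SE), with edgeR adjusted p = 0.46 and 0.51.

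Co-chaperones of BiP showed no common direction. Dnajb9, which encodes ERdj4 and is a target of spliced XBP1, averaged 32.6 ± 1.6 CPM in the PP-MP group and 43.9 ± 15.4 CPM in the control group (SD, n = 3 each), with the lowest fitted value of the 11 at −0.43 on the log2 scale. Dnajc3, which encodes the PERK and PKR inhibitor p58IPK, averaged 155 ± 12.7 CPM in the PP-MP group and 138 ± 39.3 CPM in the control group. Both rest on a wide control group, since Dnajb9 ranged 2.03-fold among controls and 1.1-fold among PP-MP libraries. Dnajb11, which encodes ERdj3, had a log2 fold change of 0.17, and Hyou1, which encodes the nucleotide exchange factor GRP170, one of 0.06. The secreted factors Manf and Creld2 had log2 fold changes of −0.12 and 0.01. Sdf2l1, which works with ERdj3, averaged 14 ± 4.65 CPM in the PP-MP group and 10.1 ± 3.13 CPM in the control group, a log2 fold change of 0.47 with an SE of 0.32.

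**Figure D2:**
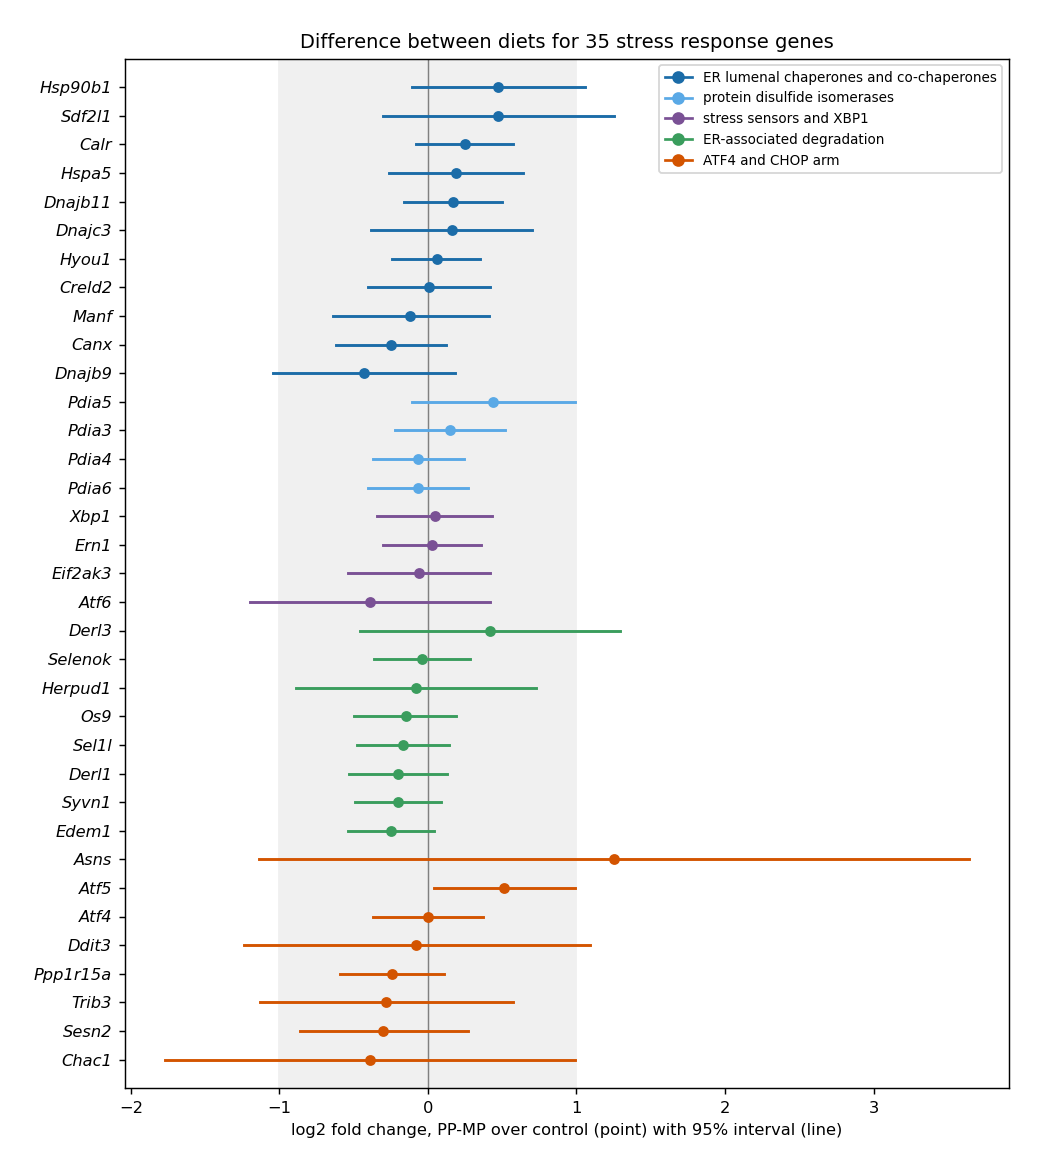
Log2 fold change of each gene, PP-MP over control (points), with its 95% edgeR interval (lines), grouped by role; grey marks changes under 2-fold. The interval of Atf5 was the only one of the 35 that lay to one side of 0, and that of Asns was the widest, from −1.14 to 3.64.

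Chaperone levels were closer together among the PP-MP libraries than among the control libraries. Control 2 was the highest control library for 11 of 11 chaperones, where it was highest for 40.7% of all genes. Control 1 was the lowest control for 10 of 11, where it was lowest for 33.7% of all genes. This order was not particular to chaperones. Of the 4 isomerases, control 2 was the highest control for 3 and control 1 the lowest for 3. Among the 8 degradation genes the order tended the other way, with control 2 lowest for 6 and control 1 highest for 5. Further ER genes went both ways and were not counted. Edem3 and Spcs3 had control 1 lowest and control 2 highest, and P4hb and Prkcsh the reverse. The median log2 ratio of control 2 over control 1 was 0.61 over the chaperones, with a range of 0.01 for Hyou1 to 1.02 for Dnajb9, and 0.02 over all genes. The median distance from lowest to highest library was 0.13 within the PP-MP group and 0.61 within the control group for the chaperones, against 0.52 and 0.62 for all genes, on the log2 scale. The control range was the wider one for 9 of 11 chaperones and for 56.8% of all genes. These are descriptions of single libraries, chosen after their values were seen, and the 11 genes share those libraries.

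Control 2 was also at an end of the control range in some other values. Its Rn18s-rs5 share, 11.187%, was the highest of the 6 libraries. The summed level of 10 plasma cell and B cell markers was 584, 142 and 43.6 CPM in PP-MP 1, 2 and 3, against 43, 185 and 20.4 CPM in control 1, 2 and 3, so that control 2 was also the highest control there. Of 10 pancreatic acinar markers, another secretory cell type, 6 were at 0 counts in all libraries (Cpa1, Cpb1, Pnlip, Prss2, Amy2a5 and Cel). The 10 summed to 8.04, 9.8 and 15.1 CPM in PP-MP 1, 2 and 3, against 10.2, 13.4 and 10.1 CPM in control 1, 2 and 3. Control 2 was the highest control there too, but the sum was nearly all Cela1. Cela1 alone had 7.26, 9.63 and 14.8 CPM in PP-MP 1, 2 and 3, against 9.92, 13.4 and 9.8 CPM in control 1, 2 and 3. Among the other marker lists, control 2 was the highest control for cholangiocytes (43.2 CPM). It was the lowest for hepatocytes (71339 CPM), Kupffer cells and macrophages (132 CPM) and acute phase genes (5183 CPM). For endothelial cells, stellate cells and neutrophils it lay between the other controls. The part of ribosomal RNA, plasma cells or any other cell type in the level of control 2 was not tested. In whole liver, fewer cells of a type and less RNA per cell cannot be told apart.

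Promoters of ER chaperones are known for an element that ATF6 binds together with NF-Y, and the matches are shown because 6 of the 9 chaperone windows searched held it. The ER stress response element (ERSE) was searched as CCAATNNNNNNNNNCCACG on both strands of RefSeq promoter windows, 250 bases before to 50 bases after the start of a gene (build GRCm38.p6). Of the 35 genes, 31 were in the promoter table, and 9 of the 31, or 29.0%, held the exact element, against 0.137% of 27025 genes. These were 6 of 9 chaperones, 1 of 4 isomerases, 2 of 7 degradation genes, 0 of 3 sensors and 0 of 8 genes of the ATF4 and CHOP arm. A match is a description of letters and not a measured site, and imperfect copies of the element were not counted. The element is known from promoters of ER chaperones, so a higher share among these genes was given in advance. It says nothing of the diets. The matches of 6 genes follow, 5′ to 3′ on the strand that reads the element, with the CCAAT and CCACG ends in capitals.
Hspa5: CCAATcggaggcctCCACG
Hsp90b1, distal: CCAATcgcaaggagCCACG
Hsp90b1, proximal: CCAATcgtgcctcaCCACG
Calr: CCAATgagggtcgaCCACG
Canx: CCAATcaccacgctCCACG
Dnajc3: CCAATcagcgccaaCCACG
Creld2: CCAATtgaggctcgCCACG
The spacer differs in each gene and the ends are fixed by the search. Calr and Canx both hold the element and lay on opposite sides of their controls. Dnajb11 held instead the related ERSE-II, searched as ATTGGNCCACG, which was present in 2 of the 31 genes (6.45%) and in 0.0444% of all genes. The share of ERSE-II has the same limit. ERSE and ERSE-II share the CCACG end, and ATTGG is CCAAT read on the other strand. The core of the XBP1 element, TGACGTGG, was in none of the 31 windows and in 0.714% of all genes, which says only that these letters are not in these windows.

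The Hspa5 window shows the element in its setting, at positions −65 to −47 relative to the start. It is the stretch before the start, chr2:34771840-34772089 on the plus strand of GRCm38.p6, with the ERSE ends in capitals.
Hspa5 promoter: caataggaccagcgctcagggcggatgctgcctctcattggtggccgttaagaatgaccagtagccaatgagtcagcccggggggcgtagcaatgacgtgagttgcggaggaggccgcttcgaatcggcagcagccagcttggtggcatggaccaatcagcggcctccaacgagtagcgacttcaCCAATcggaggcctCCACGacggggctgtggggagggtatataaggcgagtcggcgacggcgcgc

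**Figure D3:**
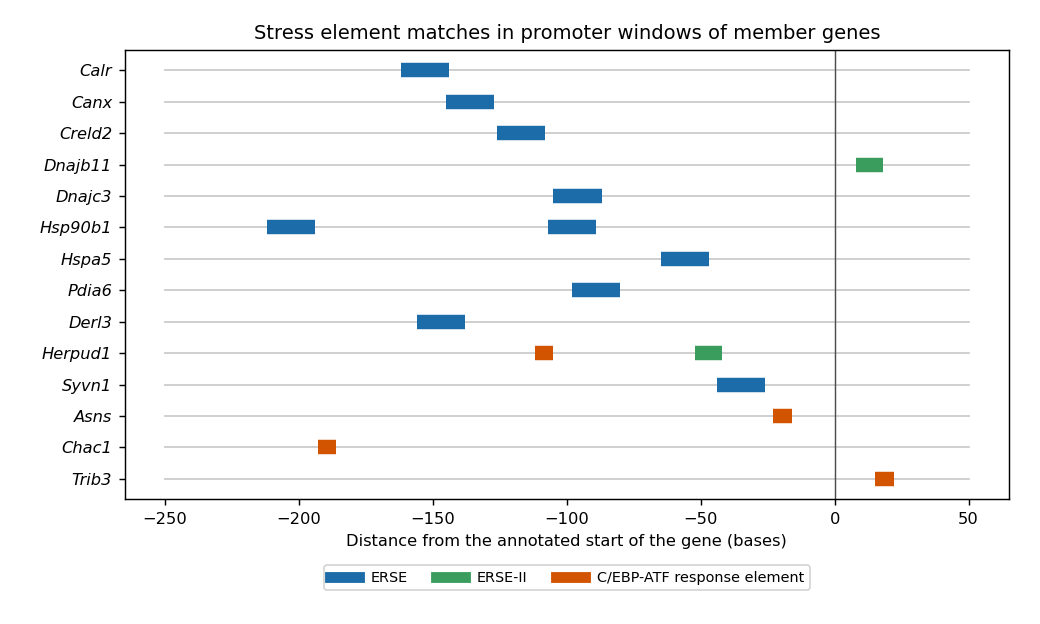
Position of each exact match relative to the annotated start of the gene, in bases; grey lines are the searched windows of 250 bases before to 50 bases after the start. ERSE matches lay between positions −212 and −26 in 9 genes, and Hsp90b1 held 2 of them.

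The protein disulfide isomerases, which form and reshuffle disulfide bonds, had a median log2 fold change of 0.04, and all 4 intervals lay within 2-fold. Fitted values were above 0 for Pdia3 and Pdia5 and below 0 for Pdia4 and Pdia6, and none passed the test by edgeR or DESeq2. Pdia3, or ERp57, the partner of calreticulin and calnexin, averaged 245 ± 7.86 CPM in the PP-MP group and 221 ± 30.9 CPM in the control group (SD, n = 3 each). Pdia5 was the isomerase with the highest log2 fold change, 0.44 with an SE of 0.23 (edgeR adjusted p = 0.44). Its high library was PP-MP 1, with 53.5 CPM, beside 36.1 and 29.5 CPM in PP-MP 2 and 3 and 26.9 to 30.9 CPM in the controls. Pdia4 and Pdia6 both had a log2 fold change of −0.07.

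No sensor transcript passed the test by edgeR or DESeq2, and the median log2 fold change of the 4 was −0.02. Ern1, which encodes the sensor IRE1, had 36.1, 31.3 and 33.6 CPM in PP-MP 1, 2 and 3, against 34.6, 35.4 and 28.8 CPM in control 1, 2 and 3. Xbp1, the transcript that IRE1 splices, had 74.7, 65.2 and 58.6 CPM in PP-MP 1, 2 and 3, against 60.6, 56.9 and 74.8 CPM in control 1, 2 and 3. For both genes the groups covered nearly the same range. Their log2 fold changes were 0.03 ± 0.14 for Ern1 and 0.05 ± 0.16 for Xbp1 (estimate ± SE), with edgeR adjusted p = 0.94 and 0.92.

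Eif2ak3, which encodes PERK, had 11.8, 8.48 and 7.87 CPM in PP-MP 1, 2 and 3, against 8.54, 10.2 and 10.6 CPM in control 1, 2 and 3. Atf6 had 34.0, 26.9 and 53.9 CPM in PP-MP 1, 2 and 3, against 58.2, 60.4 and 32.0 CPM in control 1, 2 and 3. Atf6 thus had 2 low and 1 high library in the PP-MP group and the mirror of that in the control group. The log2 fold change was −0.06 ± 0.2 for Eif2ak3 and −0.39 ± 0.34 for Atf6, and the interval of Atf6 ran from −1.2 to 0.42 (edgeR adjusted p = 0.63).

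Creb3l3, which is not among the 35 and was chosen after its values were seen, encodes CREBH, an ER-bound factor of the liver that is cleaved like ATF6. It had 8.38, 309 and 98.7 CPM in PP-MP 1, 2 and 3, against 289, 12.5 and 296 CPM in control 1, 2 and 3. Low libraries stood in both diets, and they were the pair named above as standing apart. PP-MP over control gave −0.52 with an SE of 1.35 on the log2 scale (edgeR adjusted p = 0.88).

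Degradation genes had a median log2 fold change of −0.16, with 7 of 8 fitted below 0, where 47.4% of all genes were fitted below 0. When plain library totals replaced the TMM factors, the median of all genes was 0.26, a shift of 0.23, and that of the degradation genes was 0.07. Rescaling libraries shifts every gene by about the same amount. The value relative to all genes, −0.19 under either scaling, is therefore no check on the scaling. None passed the edgeR test, none had an unadjusted edgeR p under 0.05, and DESeq2 called none. Groups did not overlap for 2 of the 8, Edem1 and Syvn1, both lower in the PP-MP group with TMM. That is 25.0%, against 9.79% of all genes. With library totals the groups of both genes overlapped, and Syvn1 had a log2 fold change of 0.04.

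Edem1, which encodes a lectin that marks misfolded glycoproteins for removal, had 102, 92.6 and 101 CPM in PP-MP 1, 2 and 3, against 122, 114 and 115 CPM in control 1, 2 and 3. Syvn1, which encodes the ubiquitin ligase HRD1, had 48.4, 56.8 and 52.5 CPM in PP-MP 1, 2 and 3, against 60.1, 58.3 and 62.6 CPM in control 1, 2 and 3. The gap between the groups was small for Syvn1, whose PP-MP 2 was near control 2. Log2 fold changes were −0.25 ± 0.12 for Edem1 and −0.20 ± 0.12 for Syvn1 (estimate ± SE), with edgeR adjusted p = 0.41 and 0.50, and both intervals reached past 0. Sel1l, the adaptor of HRD1, averaged 105 ± 9.76 CPM in the PP-MP group and 118 ± 3.45 CPM in the control group (SD, n = 3 each). Derl1 and Os9, a channel component and a lectin of the same complex, had log2 fold changes of −0.20 and −0.15, and Selenok, an ER membrane selenoprotein, one of −0.04. Syvn1 shares exon sequence with Mrpl49 on the other strand, which had 19.0 to 25.8 CPM in the PP-MP group and 26.8 to 30.6 CPM in the control group, and the strand setting of the counting is not given in the sources used here.

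Herpud1, which encodes HERP, a scaffold of the same complex, spread widely in both diets. It had 105, 189 and 231 CPM in PP-MP 1, 2 and 3, against 247, 140 and 169 CPM in control 1, 2 and 3. PP-MP 1 was the lowest of the 6 libraries and control 1 the highest. On the log2 scale the fold change was −0.08 with an SE of 0.34 and an interval from −0.89 to 0.73 (edgeR adjusted p = 0.93). Without PP-MP 1 the log2 fold change was 0.18, and without control 1 it was 0.19. Derl3, a derlin most abundant in secretory tissues, was low in the liver, with 1.5, 0.933 and 1.11 CPM in PP-MP 1, 2 and 3, against 1.16, 0.945 and 0.555 CPM in control 1, 2 and 3. Its groups overlapped, and the log2 fold change was 0.42 with an SE of 0.37.

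The Herpud1 promoter is shown because it was the only one of the 31 windows with elements of both branches, an ERSE-II at positions −52 to −42 and a C/EBP-ATF response element at positions −112 to −105. The second element, searched as TGATGNAA, is bound by ATF4 with C/EBP proteins and reads TGATGCAA on the other strand here. Both are in capitals in the stretch chr8:94386179-94386428, plus strand of GRCm38.p6.
Herpud1 promoter: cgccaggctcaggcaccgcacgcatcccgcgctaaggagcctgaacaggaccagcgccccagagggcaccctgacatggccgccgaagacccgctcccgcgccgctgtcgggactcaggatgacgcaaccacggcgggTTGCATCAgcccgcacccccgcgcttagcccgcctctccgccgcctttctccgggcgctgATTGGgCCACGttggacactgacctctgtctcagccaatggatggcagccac

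The ATF4 and CHOP arm had a median log2 fold change of −0.16, with 3 fitted values above 0 and 5 below, and single values from −0.39 for Chac1 to 1.25 for Asns. None passed the edgeR test, Atf5 alone had an unadjusted edgeR p under 0.05, and DESeq2 called none. Only 4 of the 8 intervals lay within 2-fold. Libraries of a group differed more here than for the other roles, with a median within-group SD of 0.41 on the log2 scale, against 0.22 for chaperones and 0.35 for all genes.

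Atf4 had 73.5, 59.3 and 79.9 CPM in PP-MP 1, 2 and 3, against 66.2, 76.9 and 69.1 CPM in control 1, 2 and 3. The controls lay inside the PP-MP range. Its log2 fold change was 0.00 with an SE of 0.15 and an interval from −0.37 to 0.37 (edgeR adjusted p = 1.0).

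Atf5, a relative of ATF4 whose translation is also favoured when eIF2 is phosphorylated and which is abundant in the liver, had 543, 616 and 717 CPM in PP-MP 1, 2 and 3, against 532, 410 and 375 CPM in control 1, 2 and 3. Each PP-MP library lay above each control, with a narrow gap between PP-MP 1 and control 1. The estimate was a log2 fold change of 0.51 with an SE of 0.2 and an interval from 0.04 to 0.99. The unadjusted edgeR p was 0.039, and the adjusted p was 0.34 by edgeR and 0.22 by DESeq2, so the difference did not pass the test. Across the alternative settings the log2 fold change of Atf5 ran from 0.40 without PP-MP 3 to 0.74 with library totals, and its adjusted p from 0.16 to 0.63. Genes on the other strand share exon sequence with Atf5, namely Il4i1 at 0.0663 to 0.307 CPM and Nup62 at 6.06 to 12.8 CPM over all libraries. Per kilobase of exon, Atf5 had the highest mean level of the 35 genes, 267 CPM per kilobase over the 6 libraries, ahead of Calr at 156, Hsp90b1 at 114 and Hspa5 at 93.0 CPM per kilobase.

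Ddit3, which encodes CHOP, a factor tied to cell death in prolonged ER stress, was close to the limit of detection. It had 0.129, 0.263 and 0.28 CPM in PP-MP 1, 2 and 3, against 0.303, 0.249 and 0.163 CPM in control 1, 2 and 3. These were 13, 24 and 29 counts in the PP-MP libraries, against 22, 15 and 17 counts in the controls, and the groups overlapped. The log2 fold change was −0.08 with an SE of 0.49 and an interval from −1.24 to 1.09 (edgeR adjusted p = 0.96). Ddit3 shares exon sequence with Mars1 on the other strand, at 3.48 to 40.7 CPM in the PP-MP group and 10 to 33.0 CPM in the control group, and with no strand setting given its few counts are uncertain. It had the lowest mean level per kilobase of the 35, 0.135 CPM per kilobase.

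No target of ATF4 and CHOP passed the test, and Trib3, Ppp1r15a, Sesn2 and Chac1 were each fitted below 0. Trib3, a pseudokinase that restrains ATF4, had 6.39, 12.4 and 13.2 CPM in PP-MP 1, 2 and 3, against 12, 8.96 and 17.8 CPM in control 1, 2 and 3. Ppp1r15a, which encodes GADD34, the phosphatase subunit that restores eIF2, had 9.77, 8.74 and 9.81 CPM in PP-MP 1, 2 and 3, against 12, 11.5 and 9.98 CPM in control 1, 2 and 3. The groups of Trib3 overlapped, and those of Ppp1r15a were apart by the small gap between PP-MP 3 and control 3, and overlapped with library totals. Log2 fold changes were −0.28 ± 0.35 for Trib3 and −0.24 ± 0.15 for Ppp1r15a (estimate ± SE), with edgeR adjusted p = 0.74 and 0.49. Sesn2, a stress-induced brake on the growth kinase mTORC1, averaged 11.4 ± 2.53 CPM in the PP-MP group and 14 ± 2.88 CPM in the control group (SD, n = 3 each), a log2 fold change of −0.30 with an SE of 0.24. Chac1, which degrades glutathione, had a log2 fold change of −0.39 with an SE of 0.58, and its libraries ranged 2.99-fold in the PP-MP group and 3.09-fold in the control group. Without control 3 the log2 fold change of Trib3 was 0.04, and without control 1 that of Chac1 was 0.16.

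Asns, which encodes asparagine synthetase, the standard target of the amino acid response, rested on 1 library. It had 7.11, 0.516 and 0.696 CPM in PP-MP 1, 2 and 3, against 0.813, 1.54 and 1.16 CPM in control 1, 2 and 3. PP-MP 1 was the highest of the 6 libraries, and PP-MP 2 and 3 were the lowest. The log2 fold change was 1.25 with an SE of 1 and an interval from −1.14 to 3.64 (edgeR adjusted p = 0.60), and without PP-MP 1 it was −0.95. In PP-MP 1 the acute phase gene Saa1 had 1700 CPM, against 20.6 and 5.25 CPM in PP-MP 2 and 3 and 6.29 to 8.51 CPM in the controls. Summed markers of Kupffer cells and macrophages were 636, 374 and 174 CPM in PP-MP 1, 2 and 3, against 164, 132 and 175 CPM in control 1, 2 and 3, and 0 of the 10 passed the edgeR test. Summed markers of neutrophils were 27.7, 5.37 and 3.21 CPM in PP-MP 1, 2 and 3, against 1.86, 1.74 and 1.34 CPM in control 1, 2 and 3. The part of these in the Asns level of PP-MP 1 was not tested.

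**Figure D4:**
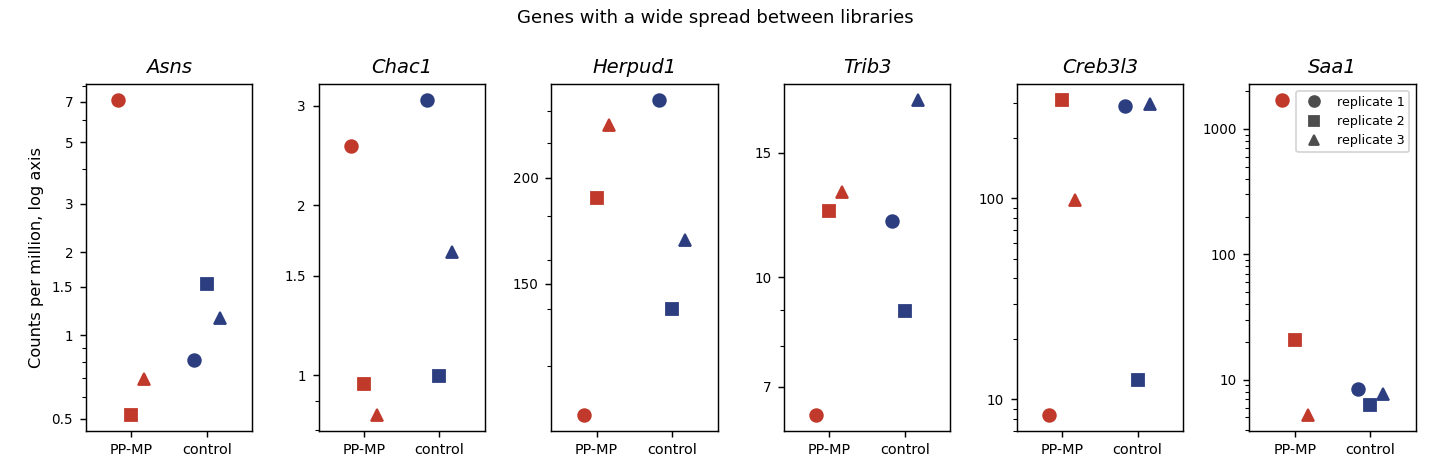
CPM on log axes, each panel with its own scale, for 4 of the 35 genes and for Creb3l3 and Saa1, which were chosen after their values were seen; points are single libraries, PP-MP in red and control in blue. Asns at 7.11 CPM and Saa1 at 1700 CPM were highest in PP-MP 1, where Creb3l3 was lowest at 8.38 CPM.

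The C/EBP-ATF response element was found in 4 of 31 windows, which is 12.9%, against 4.51% of all genes. These were Asns, Chac1 and Trib3, which are 3 of the 8 windows of the ATF4 and CHOP arm, and Herpud1. The element was searched because ATF4 binds it, so a higher share among such genes is no result on the diets. The element of the Asns window lies at positions −23 to −16 and is in capitals in the stretch chr6:7693210-7693459, minus strand of GRCm38.p6, shown as the textbook amino acid response element. The 3 genes of the arm that hold the element had log2 fold changes of 1.25, −0.39 and −0.28 for Asns, Chac1 and Trib3, and that of Asns was −0.95 without PP-MP 1.
Asns promoter: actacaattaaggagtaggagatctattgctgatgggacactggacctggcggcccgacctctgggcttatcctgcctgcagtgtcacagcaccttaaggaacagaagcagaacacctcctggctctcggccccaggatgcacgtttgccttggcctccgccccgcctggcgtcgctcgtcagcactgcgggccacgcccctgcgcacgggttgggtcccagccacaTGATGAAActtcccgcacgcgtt

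Chaperones and the ATF4 and CHOP arm lay on opposite sides of 0 by their medians, 0.16 and −0.16, against 0.03 for all genes, but not in every library. The mean over the 11 chaperones, relative to the control mean of each gene, was 0.16, 0.01 and 0.16 in PP-MP 1, 2 and 3, against −0.25, 0.31 and −0.05 in control 1, 2 and 3, on the log2 scale. The mean over the 8 genes of the arm was 0.12, −0.24 and −0.09 in PP-MP 1, 2 and 3, against 0.15, −0.06 and −0.09 in control 1, 2 and 3. The chaperone values of the PP-MP group lay within the control range, and for the arm PP-MP 2 lay below that range. With library totals the medians were 0.40 for the chaperones and 0.07 for the arm, which stand at 0.14 and −0.20 relative to the median of all genes. Such relative values barely depend on scaling by construction, so they are no further check. Without control 1 the median of the arm was 0.06, above 0.

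Differences between roles within a library do not depend on the scaling of libraries. The mean log2 level of the 15 chaperones and isomerases stood 3.42, 3.63 and 3.58 above that of the ATF4 and CHOP arm in PP-MP 1, 2 and 3, against 3.01, 3.67 and 3.42 in control 1, 2 and 3. Above the degradation genes it stood by 0.95, 0.73 and 0.76 in PP-MP 1, 2 and 3, against 0.27, 0.94 and 0.65 in control 1, 2 and 3. In both cases the groups overlapped, with control 1 the lowest of all 6 libraries. The values were not scaled by gene length, so only their difference between libraries can be read.

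**Figure D5:**
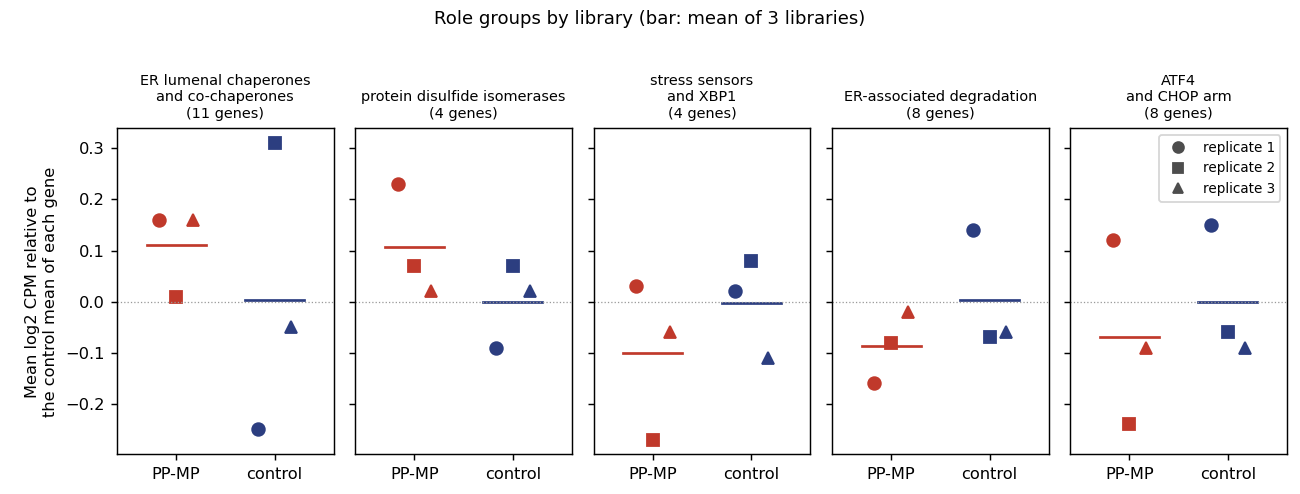
Mean over the genes of each role of log2 CPM relative to the control mean of the gene, by library; bars are means of 3 libraries. The PP-MP values of the chaperones, 0.01 to 0.16, lay between control 1 at −0.25 and control 2 at 0.31.

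How many genes have groups apart depends on the scaling and the libraries. When plain library totals replaced the TMM factors, 12 members lay wholly above and 0 wholly below the controls, where 24.5% of all genes lay above and 2.59% below. Hspa5, Dnajb11, Dnajc3, Hyou1, Pdia3, Pdia5, Pdia6, Ern1 and Selenok joined Hsp90b1, Calr and Atf5 above. Without control 2 and PP-MP 1, 9 members lay above and 10 below, where 28.8% and 24.5% of all genes did with 2 libraries a group. None of the 35 passed the edgeR test under either setting. An unadjusted edgeR p under 0.05 was reached by 7 of the 35 with library totals, against 3418 of all 18284 tested genes. Without the pair it was reached by 2 of the 35, Hsp90b1 and Chac1, against 3243 of 18414 tested genes.

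Other genes of the same pathways were read from 6 lists with 119 tested genes. None passed the edgeR test. An unadjusted edgeR p under 0.05 was reached by 2 genes that were higher and 9 that were lower, together 9.24% of the 119, against 13.9% of all genes. DESeq2 called 0 higher and 3 lower (2.52% of the 119, against 4.25% of all genes). Groups did not overlap for 3 genes that were higher (2.52%, against 12.2% of all genes) and 21 that were lower (17.6%, against 9.79%), and the median log2 fold change was −0.13. Relative to the median of all genes it was −0.16. With library totals the median of all genes was 0.26, and the lists stood at −0.24 to 0.01 relative to it. No list median was then below 0, so the lower values given below depend on the TMM scaling. The counts of genes whose groups did not overlap are likewise those with TMM.

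Further folding and translocation genes of the ER, 34 in number, had a median log2 fold change of −0.21, with 26 fitted below 0. Relative to all genes their median stood at −0.24. Srprb, which encodes the beta subunit of the signal recognition particle receptor, had 14.2, 14.6 and 15 CPM in PP-MP 1, 2 and 3, against 23.2, 20.2 and 21.6 CPM in control 1, 2 and 3. Both groups were tight and apart. It had a log2 fold change of −0.57 with an SE of 0.12, the smallest p of the 119 (edgeR adjusted p = 0.21, DESeq2 adjusted p = 0.0039). The gene model Gm20425 shares exons with Srprb on the same strand, and its level was not read. Stt3a, a catalytic subunit of the oligosaccharyltransferase, averaged 47.1 ± 3.24 CPM in the PP-MP group and 60.3 ± 1.99 CPM in the control group (SD, n = 3 each), and Fkbp14, a prolyl isomerase of collagen, 5.87 ± 1.19 CPM in the PP-MP group and 3.79 ± 0.728 CPM in the control group. Neither was called by edgeR (adjusted p = 0.30 and 0.33) or DESeq2.

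Further degradation genes, 21 in number, had a median log2 fold change of −0.15, with 16 fitted below 0. Relative to all genes their median stood at −0.18. Of the 21, 5 lay wholly below the controls, which is 23.8%, against 9.79% of all genes. That was not particular to degradation genes. The share wholly below was 29.4% for the further folding and translocation genes and 30.0% for the further sensors and ER transcription factors. In the remaining lists it was 0.0% to 18.2%. Edem2, the mannosidase that starts the trimming of glycoproteins for removal, averaged 32.7 ± 1.02 CPM in the PP-MP group and 43.0 ± 2.08 CPM in the control group (SD, n = 3 each). Ube2g2, a ubiquitin-conjugating enzyme of the pathway, averaged 24.2 ± 0.706 CPM in the PP-MP group and 33.6 ± 3.34 CPM in the control group. DESeq2 called both lower (adjusted p = 0.047 for Edem2 and 0.039 for Ube2g2) and edgeR did not (adjusted p = 0.25 and 0.24). Gm49325 and Mir1930 share exons with Ube2g2 on the same strand, and their levels were not read. The ubiquitin ligase Rnf5 had a log2 fold change of −0.38 with an SE of 0.16.

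Further sensors and ER transcription factors, 10 in number, had a median log2 fold change of −0.18, which is −0.21 relative to all genes. Tmbim6, which encodes BAX inhibitor 1, an ER membrane protein that restrains IRE1, had 803, 1308 and 1177 CPM in PP-MP 1, 2 and 3, against 1972, 1363 and 1809 CPM in control 1, 2 and 3. PP-MP 1 was the lowest library, and the gap between PP-MP 2 and control 2 was narrow. That gave a log2 fold change of −0.65 with an SE of 0.25 (edgeR adjusted p = 0.34). Mbtps1, the protease that cleaves ATF6, and Traf2, which links IRE1 to JNK, had log2 fold changes of −0.30 and −0.35 and were not called.

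On the translation side, the 15 kinases, phosphatases and exchange factor subunits of eIF2 had a median log2 fold change of −0.09, none wholly above or below its controls, and all 15 intervals lay within 2-fold. The 28 further targets of ATF4 and CHOP had a median of 0.04, with 16 fitted above 0 and 12 below, and the 11 aminoacyl-tRNA synthetases one of −0.04. Of the targets, Slc3a2, the heavy chain of amino acid exchangers, averaged 26.7 ± 2.12 CPM in the PP-MP group and 35.6 ± 4.38 CPM in the control group, and Nupr1, a stress-induced chromatin protein, 1.65 ± 0.665 CPM in the PP-MP group and 0.885 ± 0.267 CPM in the control group (SD, n = 3 each). Of the synthetases, Cars had a log2 fold change of −0.41, Sars one of −0.27 and Lars one of 0.21. None of these passed the test by edgeR or DESeq2.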

How the data were processed

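Liver RNA of 6 samples was sequenced, 3 on chow with PP-MP and 3 on normal chow. Per the labels' protocols, Direct-zol total RNA went through poly(A) selection and into strand-marking NEBNext Ultra II libraries. Per the submitters' processing notes, bcl2fastq and the build GRCm39 were used, with no versions. Which aligner, counter, strand setting and gene annotation were used is not given in the sources used here. Deposited values were raw read counts per gene symbol, made by the authors, and the 6 deposited per-sample files are identical to the columns of the series table.

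Counts were filtered with filterByExpr, scaled with TMM factors (1.032 to 1.124 in PP-MP and 0.8822 to 0.9566 in control libraries) and fitted with edgeR 4.0.16 in R 4.3.3 (quasi-likelihood, robust, two-sided F test). Adjusted p is that of Benjamini and Hochberg over all 18284 tested genes, called under 0.05. The fit gives no SE directly. The SE here is the size of the log2 fold change divided by the square root of the F statistic. The 95% intervals were built from this SE and the t distribution. CPM are counts per 1000000 TMM-scaled counts. Log2 CPM for ranges within a group, role means and SDs used a prior count of 2. Role medians carry no test, since genes of a role share samples. The procedure was tested on simulated data, where it missed most changes of 2-fold or less and the share of false calls was above the nominal threshold. Alternatives were DESeq2 1.42.0, limma-voom (limma 3.58.1), other scalings and filters, a replicate block, a threshold of 0.1 and libraries left out.

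The members and lists were chosen with earlier results of these data known. All 35 members are accounted for, with every library given for those whose groups do not overlap or whose unadjusted p is under 0.05 and for 14 key genes, and for each other list at most 3 genes of smallest p without overlap and with a mean of at least 1 CPM are named. Of 120 list entries, 109 matched by symbol, 10 by a RefSeq synonym and 1 not at all. Exonic lengths and overlapping gene models are from GENCODE M21 (GRCm38), which is another build than that of the counts. Promoter sequences are from RefSeq (GRCm38.p6). Marker lists of 10 genes each were checked. Summed endothelial markers were 127 to 201 CPM in PP-MP and 145 to 167 CPM in control libraries. In the same order, stellate cell and fibroblast markers were 276 to 446 CPM and 314 to 318 CPM. Cholangiocyte markers were 21.4 to 33.6 CPM and 27.7 to 43.2 CPM. No tested marker of any list passed the edgeR test. Not all were tested: 2 of 10 acinar, 5 of 10 neutrophil, 8 of 10 cholangiocyte, 9 of 10 plasma cell and B cell and 9 of 10 acute phase markers were.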

Additional observations from a re-analysis of the deposited data

How the results depend on the processing

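None of the 35 genes passed the threshold under any of the 16 alternatives, and the lowest adjusted p of a member under any was 0.16 (Atf5, library totals). Over the whole table, edgeR called 2 genes. The count was 1 with library totals, 1 with limma-voom, 777 with the DESeq2 test and 0 with the replicate block, and 0 to 92 when single libraries were left out, with 92 reached without control 2. The cause of these differences was not tested. The labels do not say whether replicate numbers pair the samples. Correlations of same-numbered deviations from the group means were −0.0662, −0.0872 and 0.047, which cannot settle it with 3 libraries a group. With the replicate block, the adjusted p of Atf5 was 0.52 and no call among the 35 changed.

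With library totals the role medians were 0.40 for chaperones, 0.28 for isomerases, 0.22 for sensors, 0.07 for degradation genes and 0.07 for the ATF4 and CHOP arm, where the median of all genes shifted by 0.23. Leaving out single libraries, the medians ran from 0.07 to 0.26 for chaperones, −0.01 to 0.15 for isomerases, −0.15 to 0.04 for sensors, −0.21 to −0.12 for degradation genes and −0.20 to 0.06 for the ATF4 and CHOP arm.

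Of 559 values of single members under an alternative, 517 kept their direction and 42, in 18 members, turned. With library totals, the log2 fold change became 0.15 for Ddit3, 0.03 for Derl1, 0.18 for Eif2ak3, 0.13 for Herpud1, 0.13 for Manf, 0.08 for Os9, 0.17 for Pdia4, 0.17 for Pdia6, 0.06 for Sel1l, 0.19 for Selenok and 0.04 for Syvn1. It was −0.01 for Creld2 with DESeq2 size factors and with the DESeq2 test. Without control 2 and PP-MP 1 together it was −0.70 for Asns, 0.24 for Ddit3, 0.01 for Herpud1, 0.07 for Manf, 0.02 for Pdia6 and −0.13 for Xbp1. Leaving out single libraries, values of genes that turned ran from −0.95 to 1.74 for Asns, −1.07 to 0.16 for Chac1, −0.06 to 0.20 for Creld2, −0.28 to 0.20 for Ddit3, −0.01 to 0.40 for Dnajc3, −0.26 to 0.05 for Eif2ak3, −0.03 to 0.10 for Ern1, −0.34 to 0.19 for Herpud1, −0.26 to 0.13 for Manf, −0.11 to 0.04 for Pdia6, −0.09 to 0.03 for Selenok, −0.48 to 0.04 for Trib3 and −0.05 to 0.20 for Xbp1. Depth limits Ddit3 most of the 35, with 13 to 29 counts in the PP-MP libraries and 15 to 22 in the controls.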

Other observations

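Some further genes of the pathways, chosen after their values were seen, differed more between single libraries than between diets. Fgf21, a liver hormone that ATF4 induces, had 2.21, 11.1 and 6.83 CPM in PP-MP 1, 2 and 3, against 2.27, 3.42 and 1.19 CPM in control 1, 2 and 3. PP-MP 2 and 3 were the highest libraries and PP-MP 1 lay among the controls, and the log2 fold change of 1.55 with an SE of 0.63 did not pass the test (edgeR adjusted p = 0.36, DESeq2 adjusted p = 0.14). Gdf15, another secreted stress hormone, had 2.17, 9.2 and 5.58 CPM in PP-MP 1, 2 and 3, against 6.32, 8.16 and 6.54 CPM in control 1, 2 and 3, so that it was lowest in the library where Asns was highest. Aars, the alanyl-tRNA synthetase and a target of ATF4, had 31.9, 160 and 0.561 CPM in PP-MP 1, 2 and 3, against 77.2, 78.8 and 0.249 CPM in control 1, 2 and 3. Its level was thus near 0 in 1 library of each diet, although the gene is needed by every cell, and both of these libraries were labelled replicate 3.

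Cell type markers also held single zeros. The endothelial cadherin Cdh5 had 562, 279 and 373 counts in PP-MP 1, 2 and 3, against 0, 345 and 1245 counts in control 1, 2 and 3. The mural cell receptor Pdgfrb had 632, 0 and 370 counts in PP-MP 1, 2 and 3, against 697, 355 and 283 counts in control 1, 2 and 3.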
